A study of Mus musculus with 4 samples.

Results

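The genes described here are the fibroblast growth factor (FGF) carrier Fgfbp1, the ligands Fgf1, Fgf2, Fgf7, Fgf10 and Fgf13, and the receptors Fgfr1, Fgfr2, Fgfr3 and Fgfr4 in mouse dorsal root ganglia. They were taken by symbol from a table in FPKM (fragments scaled to the length of the transcript and to the mapped total). Of the 10 named genes, 8 had values among the 14405 genes of the table, and all 8 were among the 14040 genes tested. Fgf10 and Fgfr4 were not analysed here. Every gene in the table reached 1 FPKM in at least 1 sample. The mutant group was 2 samples of genotype Prdm12-/Fl; AvilCreERT2/+, in which Prdm12 is null on 1 chromosome and floxed on the other, with a tamoxifen-inducible Cre recombinase at the sensory neuron gene Avil. The wild type group was 2 samples labelled wild type. All 4 came from mice aged 10 weeks of a strain labelled mixed, and the series title sets loss of Prdm12 in development against loss in mature pain-sensing neurons. The sources used here do not state whether wild type mice received tamoxifen or carried the Cre, or whether a sample was 1 animal or a pool. The set was chosen by the FPKM of Fgfbp1 in mutant and wild type ganglia, to which genes of its ligands and receptors were added by name. The difference of Fgfbp1 is therefore a description and was not tested.

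FGFs are secreted proteins that bind heparan sulfate on cell surfaces and in the matrix, and signal through receptor tyrosine kinases. The carrier protein encoded by Fgfbp1 is secreted, binds FGFs such as FGF1, FGF2, FGF7 and FGF10 and frees them from the matrix. In the mouse, Fgfbp1 is known from epithelia, from muscle fibres and from the endothelium of the blood-brain barrier. Fgf13 belongs to the FGF homologous factors, which stay inside the cell and bind voltage-gated sodium channels, so it is not a partner for the carrier or the receptors. FGF1 in sensory ganglia is known as a neuronal product that lacks a classical secretion signal.

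In GRCm38.p6, the assembly of mm10, RefSeq places Fgfbp1 on chromosome 5 from 43978858 to 43981828 on the minus strand. Fgf2 lies on chromosome 3 from 37348477 to 37410106, and Fgf7 on chromosome 2 from 126034658 to 126091185. Fgf13 lies on chromosome X from 59062139 to 59585572 and Fgfr1 on chromosome 8 from 25518759 to 25575718. Fgfr2 lies on chromosome 7 from 130162451 to 130266808 and Fgfr3 on chromosome 5 from 33721724 to 33737068. RefSeq promoter windows, 250 bases before and 50 bases after an annotated transcript start, matched 8 of the 10 named genes, all but Fgf1 and Fgfr1. The windows of the carrier and of the secreted ligands whose mutant samples lay below both wild types are shown, so that these genes with lower values can be read side by side. Each reads 5′ to 3′ on the gene's own strand, and capitals mark matches on either strand to a TATA box (TATAAA), an AP-1 site (TGANTCA) or a GC box (GGGCGG).
Fgfbp1, chr5:43981750-43982049, minus strand: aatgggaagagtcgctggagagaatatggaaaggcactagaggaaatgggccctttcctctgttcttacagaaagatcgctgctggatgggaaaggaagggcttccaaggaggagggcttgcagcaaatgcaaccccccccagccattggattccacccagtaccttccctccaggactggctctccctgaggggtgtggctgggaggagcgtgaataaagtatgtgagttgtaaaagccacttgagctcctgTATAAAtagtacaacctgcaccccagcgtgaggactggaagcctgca
Fgf2, chr3:37348403-37348702, plus strand: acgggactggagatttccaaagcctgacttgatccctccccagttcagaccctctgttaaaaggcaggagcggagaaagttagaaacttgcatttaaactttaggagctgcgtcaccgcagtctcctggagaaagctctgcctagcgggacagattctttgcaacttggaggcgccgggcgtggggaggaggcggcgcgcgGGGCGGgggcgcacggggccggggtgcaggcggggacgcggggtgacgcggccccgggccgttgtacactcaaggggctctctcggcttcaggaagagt
Fgf7, chr2:126034408-126034707, plus strand: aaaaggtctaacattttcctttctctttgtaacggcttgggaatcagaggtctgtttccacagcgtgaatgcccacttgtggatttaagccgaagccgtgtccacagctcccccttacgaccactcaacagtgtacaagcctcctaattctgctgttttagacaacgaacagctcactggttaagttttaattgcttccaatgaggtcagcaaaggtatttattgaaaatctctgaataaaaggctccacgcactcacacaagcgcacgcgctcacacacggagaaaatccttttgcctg
The Fgfbp1 window held 1 TATA box, which 13.6% of all 32851 windows of this length held, and it began at the 4th base of the annotated transcript, a start that lies before the start at 43981779 in GENCODE M21. The Fgf2 window held 1 GC box (35.7% of all windows), and the Fgf7 window held none of these motifs. The Fgf2 window runs past the RefSeq gene start at 37348477, and its GC box lies after that start. All of the window lies after the GENCODE M21 start at 37348346. AP-1 sites were in 7.81% of all windows and in none of the 3 shown. The Fgfbp1 window was 53.3% G and C with 4 CG pairs, that of Fgf2 62.7% with 24, and that of Fgf7 45.7% with 11, where the median window was 52.7% with 7.

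The carrier was low in both mutants. Fgfbp1 stood at 10.0 and 12.7 FPKM in the mutants, against 56.4 and 54.6 FPKM in wild type. The groups lay far apart, and the samples within each differed by much less. The means were 11.4 ± 1.92 FPKM in mutant and 55.5 ± 1.23 FPKM in wild type ganglia (SD, n = 2 each), 4.87-fold lower in the mutants. The difference in log2(FPKM + 1), the scale of all differences below, was -2.20, and its standard error 0.17. It ranked 4th from the lowest among the 14040 genes tested. The authors' deposited table of 150 genes gives a log2 ratio of -2.28 for Fgfbp1 and holds none of the other 7 genes. In bulk ganglia, fewer cells that make a transcript and less of it per cell cannot be told apart.

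The ligand genes sat at very different levels and none of them showed a difference of that size. Fgf1 was the most abundant of the extracellular ligands, at 94.9 and 124 FPKM in the mutants and 89.8 and 96.9 FPKM in wild type. The groups overlapped, and mutant 2 was the highest sample. Its log2 difference was 0.22 with a 95% interval of -0.26 to 0.69, and it was 0.024 without mutant 2 and 0.41 without mutant 1. Fgf7, a ligand of epithelia made by mesenchymal cells, was at 6.97 and 5.81 FPKM in the mutants and 9.89 and 7.54 FPKM in wild type. Both mutants were below both wild types, with a log2 difference of -0.39 and an interval of -0.86 to 0.08. Fgf2, a ligand with broad action on mesenchyme, endothelium and neurons, was at 1.85 and 1.29 FPKM in the mutants and 1.86 and 2.36 FPKM in wild type. Mutant 1 and wild type 1 were nearly equal, so the groups were only just apart, and the log2 difference was -0.28 with an interval of -0.78 to 0.21. Fgf7 had a log2 difference of -0.57 without wild type 2 and -0.21 without wild type 1. For Fgf2, the value was -0.44 without mutant 1 and -0.12 without mutant 2.

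Fgf13, the intracellular factor of neurons, had the highest mean of the 8 genes. It was at 115 and 130 FPKM in the mutants and 107 and 143 FPKM in wild type. The wild type samples enclosed both mutants, and the log2 difference was -0.012 with an interval of -0.51 to 0.49. Its sign turned with the sample left out, at 0.19 without wild type 2 and -0.22 without wild type 1, and it was 0.0020 after rescaling by median ratios. The neuronal factor Fgf12 was at 44.1 and 41.4 FPKM in the mutants and 35.4 and 44.9 FPKM in wild type, also with overlap.

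Among the receptors, Fgfr1 carried most of the signal. Fgfr1 was at 57.8 and 45.0 FPKM in the mutants and 66.3 and 58.3 FPKM in wild type. Mutant 1 and wild type 2 were close and mutant 2 was the lowest, so the groups did not overlap, with a log2 difference of -0.28 (interval -0.75 to 0.19). Without mutant 2 the difference was -0.10, and without mutant 1 it was -0.46. Fgfr2, whose splice forms bind FGF7 and FGF10 or FGF2, was at 4.26 and 3.07 FPKM in the mutants and 6.80 and 5.54 FPKM in wild type. Both mutants were clearly below both wild types, with means of 3.66 ± 0.842 FPKM in mutant and 6.17 ± 0.893 FPKM in wild type ganglia (SD, n = 2 each). Its log2 difference was -0.63 (standard error 0.19), the largest among the 7 genes other than Fgfbp1. The value ran from -0.81 without mutant 1 to -0.44 without mutant 2. The table gives 1 value per gene, so the splice forms of Fgfr2 were not analysed here. Fgfr3, a receptor best known from cartilage and astrocytes, was at 1.28 and 1.02 FPKM in the mutants and 1.07 and 0.682 FPKM in wild type, with overlap and a log2 difference of 0.20. It passed the minimum of 1 FPKM through the mutant group only.

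**Figure D1:**
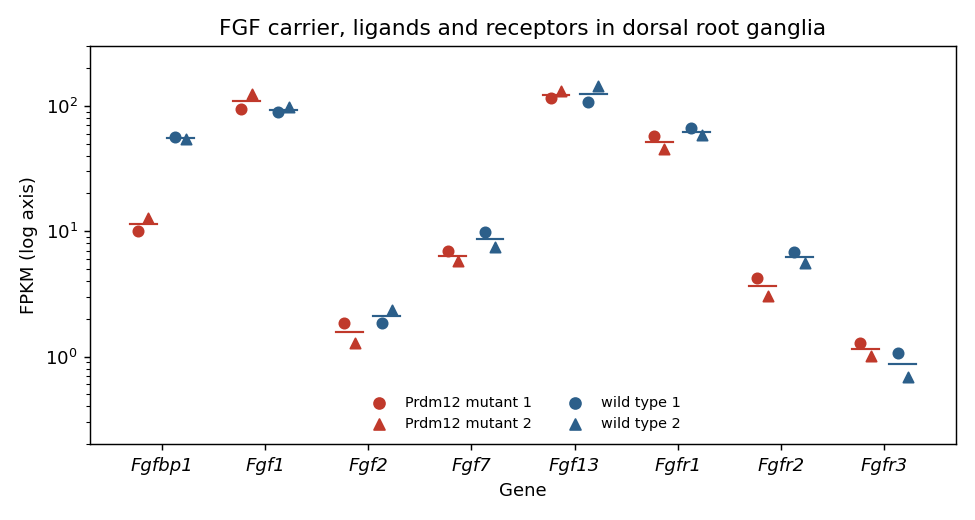
FPKM on a log axis for the 8 FGF genes in each of the 4 samples, mutants in red and wild types in blue, with circles for sample 1, triangles for sample 2 and lines for group means. Fgfbp1 is at 10.0 and 12.7 FPKM in the mutants and near 55.5 FPKM in wild type, while the group means of the other 7 genes lie closer together.

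With limma over all genes, none of the 7 genes other than Fgfbp1 passed an adjusted p of 0.05. The adjusted p was 0.960 for Fgfr2 and from 0.994 to 0.995 for the other 6. The background was the same, since limma called 0 of 14040 genes (0%), with a smallest adjusted p of 0.175. Before adjustment, 612 genes (4.36%) were under 0.05 in the limma fit, 1.35% of all genes higher and 3.01% lower, and of the 7 only Fgfr2 was, on the lower side. An exact two-sided permutation test of 2 against 2 samples cannot give a p below 0.333. Of the 8 genes, 5 were lower in the mutants without overlap (Fgfbp1, Fgf2, Fgf7, Fgfr1 and Fgfr2) and 0 were higher. Over all genes tested, 19.6% were lower without overlap and 12.5% were higher, 32.1% in all. The median log2 difference of the 7 genes other than Fgfbp1 was -0.28, beside -0.0048 for all genes tested. Since the genes were chosen with results of this comparison known, nothing is read from these counts.

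**Figure D2:**
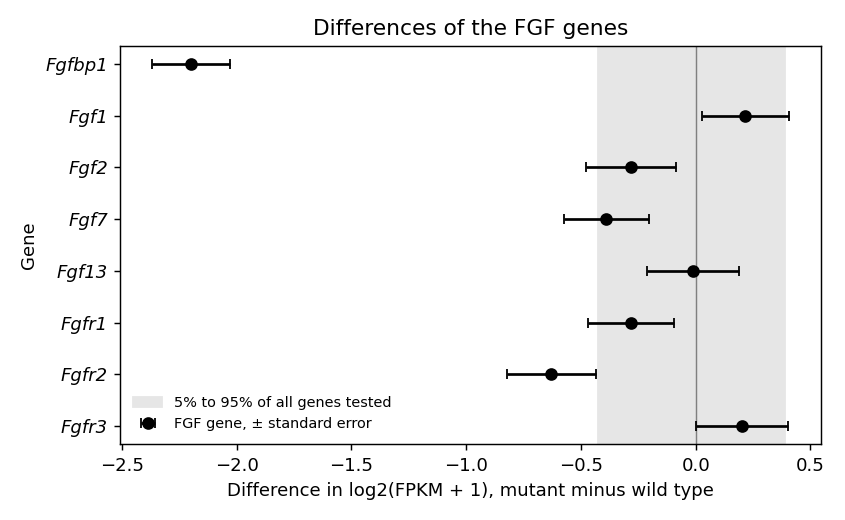
Difference in log2(FPKM + 1), mutant minus wild type, for the 8 FGF genes, with bars of ± 1 standard error from limma, over a grey band from the 5% to the 95% point of all genes tested (-0.43 to 0.39). Fgfbp1 at -2.20 and Fgfr2 at -0.63 lie outside the band, and the other 6 lie within it.

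By level over all 4 samples, the order was Fgf13 (mean 124 FPKM), Fgf1 (101 FPKM), Fgfr1 (56.9 FPKM), Fgfbp1 (33.5 FPKM), Fgf7 (7.55 FPKM), Fgfr2 (4.92 FPKM), Fgf2 (1.84 FPKM) and Fgfr3 (1.01 FPKM). Neighbours overlapped in range for Fgf13 and Fgf1, for Fgfr1 and Fgfbp1, and for Fgf7 and Fgfr2. FPKM is per length, so these levels can be set side by side. By group mean, Fgfbp1 came next below Fgfr1 in both groups, at 11.4 FPKM beside 51.4 FPKM for Fgfr1 in the mutants and at 55.5 FPKM beside 62.3 FPKM in wild type.

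Ratios within a library do not depend on how libraries were scaled. Fgfbp1 per FPKM of the summed ligands Fgf1, Fgf2 and Fgf7 was 0.0968 and 0.0971 in the mutants, against 0.555 and 0.512 in wild type. The mutants were nearly identical in this ratio although Fgfbp1 and the ligand sum each differed between them. The ligand sum was 104 and 131 FPKM in the mutants and 102 and 107 FPKM in wild type, and Fgf1 made up 91.5% and 94.6% of it in the mutants and 88.4% and 90.7% in wild type. The receptor sum was 63.3 and 49.1 FPKM in the mutants and 74.2 and 64.5 FPKM in wild type, lower in both mutants. Fgfr2 made up 6.73% and 6.24% of the receptor sum in the mutants and 9.17% and 8.59% in wild type. Fgfr1 was 13.6 and 14.7 times the level of Fgfr2 in the mutants, against 9.75 and 10.5 times in wild type. These ratios come from the same samples as the differences above and are given as values.

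**Figure D3:**
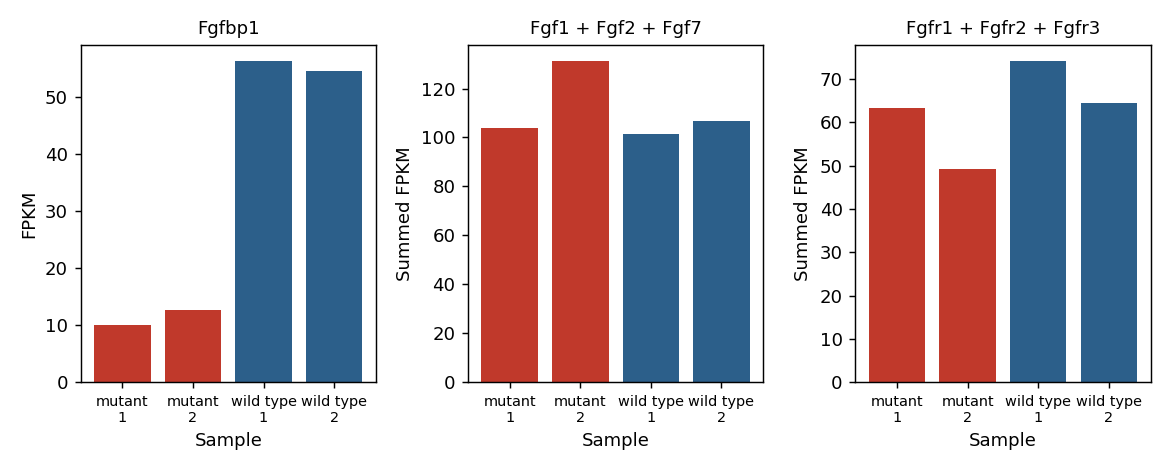
FPKM of Fgfbp1, summed FPKM of Fgf1, Fgf2 and Fgf7, and summed FPKM of Fgfr1, Fgfr2 and Fgfr3 in each sample, mutants in red and wild types in blue. The carrier is at 10.0 and 12.7 FPKM in the mutants, while the ligand sum is 104 and 131 FPKM in the mutants and 102 and 107 FPKM in wild type.

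The genes whose profile over the 4 samples lay closest to that of Fgfbp1 were found among the 9772 genes whose mean reached 5 FPKM in a group, by the distance between centred log2 values. In order they were Ptgds (distance 0.31), which encodes the lipocalin-type prostaglandin D synthase, Prdm12 (0.35), Nnat (0.44), which encodes neuronatin, the P-type ATPase gene Atp13a5 (0.51) and the organic anion transporter gene Slc22a6 (0.52). Prdm12 itself, the targeted gene, was at 1.05 and 1.50 FPKM in the mutants and 7.58 and 10.7 FPKM in wild type. Avil, whose locus carries the Cre, was at 102 and 164 FPKM in the mutants and 78.4 and 124 FPKM in wild type, with overlap. With 4 samples such a likeness mostly says that a gene was lower in the mutants by a similar amount.

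Fgfbp1 was set beside 15 lists of cell type markers. Over all genes tested, 19.6% were lower in the mutants without overlap and 12.5% higher, the background for the counts of every marker list. Of the meningeal and arachnoid barrier markers, 13 of 15 were lower in the mutants without overlap and 0 higher, with a median log2 difference of -1.34. Both Fgfbp1 and this list were chosen with earlier results of these data known, so the count is a description only. Their summed level was 3754 and 3325 FPKM in the mutants and 14352 and 13975 FPKM in wild type. Most of that was Ptgds, and the other 14 summed to 553 and 300.2 FPKM in the mutants and 1254 and 920.2 FPKM in wild type. None of the 15 had a log2 difference as low as that of Fgfbp1, the nearest being Ptgds at -2.07. Igf2, the other most abundant marker, was at 121 and 89.9 FPKM in the mutants and 357 and 248 FPKM in wild type. Between the mutants the order was not the same, since all 15 markers were lower in mutant 2 than in mutant 1 and Fgfbp1 was higher in mutant 2. The part of meningeal cells in the level of Fgfbp1 was not tested.

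Lists for endothelium, muscle and epithelium, from which Fgfbp1 is known, were also set beside it. The 5 barrier endothelial markers, led by Mfsd2a and Abcb1a, summed to 34.9 and 44.7 FPKM in the mutants and 52.7 and 45.1 FPKM in wild type, with 3 lower and 2 higher without overlap. The sums were lower in both mutants, by much less than Fgfbp1. Among them, the efflux transporter gene Abcb1a was at 9.93 and 6.62 FPKM in the mutants and 23.4 and 18.5 FPKM in wild type. Mfsd2a, the most abundant, went the other way, at 16.2 and 29.2 FPKM in the mutants and 15.0 and 15.9 FPKM in wild type. Slco1c1 was also higher without overlap. General endothelial markers, led by Ly6c1 and Egfl7, summed to 191 FPKM in each mutant and 201 and 203 FPKM in wild type, with 2 of 9 lower and 0 higher without overlap. Skeletal muscle markers, led by Acta1 and Tnnt3, summed to 110.3 and 4202 FPKM in the mutants and 250.0 and 1996 FPKM in wild type. Of the keratinocyte markers, Krt5, Krt14, Krt1 and Dsp were not analysed here, and Krt10 and Sfn summed to 3.62 and 4.96 FPKM in the mutants and 3.58 and 4.76 FPKM in wild type. The part of these cell types in the level of Fgfbp1 was not tested.

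Other lists were set beside the ligands and receptors. Fibroblast markers, led by Dcn and Mgp, summed to 7096 and 3940 FPKM in the mutants and 7091 and 6212 FPKM in wild type, and 1 of 7 was lower without overlap. Mutant 2 had the lowest sum, and it was also the lowest sample for Fgf2, Fgf7, Fgfr1 and Fgfr2. Mutant 1 and wild type 1 had nearly equal sums, the highest of the 4 samples. For these 4 genes mutant 1 was below both wild types, though only just for Fgf2 and Fgfr1. Fgf7, Fgfr1 and Fgfr2 shared the sample order of the meningeal sum, and Fgf2 did not. That order fell from wild type 1 to wild type 2, mutant 1 and mutant 2. For Fgfr1 it rests on a small gap between wild type 2 and mutant 1 (58.3 and 57.8 FPKM). The share of all genes with this order was not computed, so nothing is read from it. Perineurial markers, led by Cldn1 and Slc2a1, summed to 195 and 104 FPKM in the mutants and 176 and 156 FPKM in wild type, with 1 of 3 higher without overlap and 0 lower. Adipocyte markers, led by Fabp4 and Cfd, summed to 268 and 2267 FPKM in the mutants and 462 and 736 FPKM in wild type, and Lep was at most 1.39 FPKM in any sample. Neuronal markers, led by Uchl1 and Tubb3, summed to 4338 and 6996 FPKM in the mutants and 4013 and 5504 FPKM in wild type. They were abundant in all 4 samples, as labelled, with 1 of 8 higher without overlap. Of 9 myelinating Schwann cell markers, 5 were higher without overlap and 0 lower, and Pmp22, a peripheral myelin protein gene, was at 3404 and 6144 FPKM in the mutants and 3153 and 2752 FPKM in wild type. Fgf1, Pmp22 and the muscle, fat and neuronal sums shared their highest sample, mutant 2. The part of these cell types in the levels of the FGF genes was not tested.

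The remaining lists were satellite glia (5 markers, led by Apoe and Fabp7, 2 higher and 1 lower without overlap), mural cells (7, led by Tagln and Acta2, 1 lower), macrophages (5, led by C1qa and Csf1r, 0 in either direction), erythrocytes (4 analysed, led by Hbb-b1 and Hba-a1, all 4 higher) and spinal cord (2 analysed, Gfap and Aqp4, 1 higher). Erythrocyte markers summed to 5837 and 6052 FPKM in the mutants and 3134 and 2940 FPKM in wild type.

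**Figure D4:**
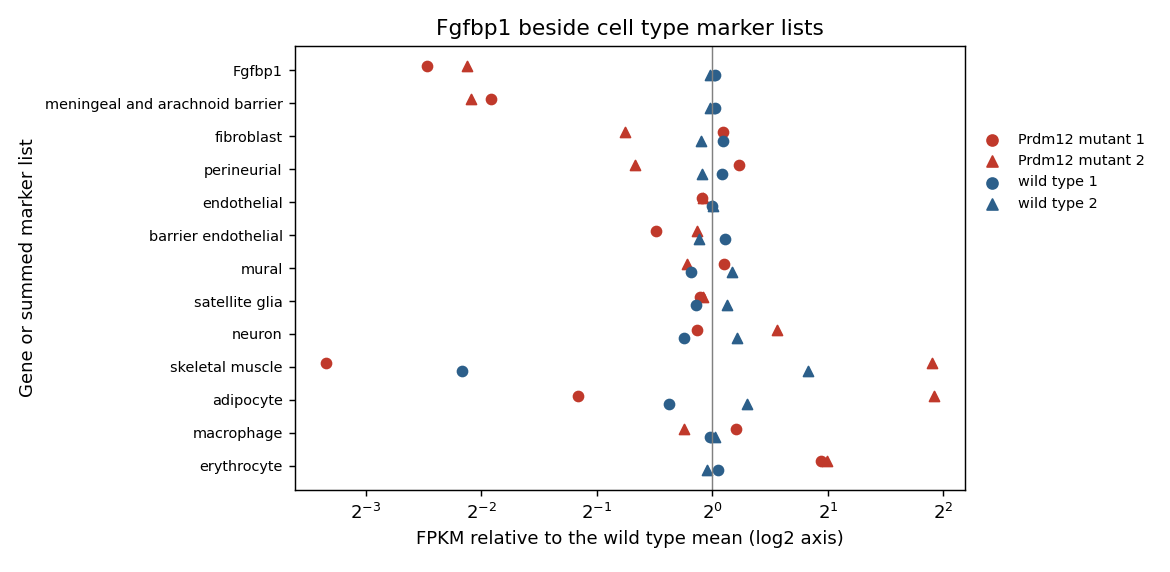
Level of Fgfbp1 and summed level of 12 marker lists relative to the wild type mean, on a log2 axis, for each sample, mutants in red and wild types in blue. Fgfbp1 (0.181 and 0.230 in the mutants) and the meningeal list (0.265 and 0.235) lie far to the left, while the muscle and adipocyte lists split the samples within each group.

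Beyond the 8 genes, 76 of 94 other genes written down for the FGF pathway were tested. With limma, 0 of the 76 passed an adjusted p of 0.05 (background 0%), and at an unadjusted p under 0.05 there were 3 lower and 0 higher. The authors' deposited table of 150 genes, which they label as significant, holds 1 gene of these lists. That table is limited to log2 ratios of at least 1 in size. By ratio of means, only the klotho gene Kl reached this among these lists, at 2.89-fold lower in the mutants. By that limit, Kl is the gene the authors label as significant. In the mutants 18 of the 76 (23.7%) were lower without overlap and 8 (10.5%) higher, beside 19.6% and 12.5% of all genes tested. The median log2 difference was -0.05. The shares of all genes tested are also the background for the counts of each pathway list below.

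The other ligands had values for 3 of 14 genes, with a median log2 difference of 0.10 and 2 higher and 0 lower without overlap. Fgf18 was at 4.43 and 4.66 FPKM in the mutants and 4.28 and 4.07 FPKM in wild type. Fgf4 was at 2.46 and 3.12 FPKM in the mutants and 2.23 and 1.60 FPKM in wild type, and Fgf9 overlapped, with a log2 difference of -0.02. Fgf4, Fgf9, Fgf12 and Fgf18 are outside the rule for named genes and were named after their values were seen. The 3 further intracellular factors had a median log2 difference of -0.05, with 1 lower and 0 higher without overlap.

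Of 10 other carriers and co-receptors, 3 were lower and 0 higher without overlap, with a median log2 difference of -0.10. The second FGF carrier gene, Fgfbp3, was scarce and did not follow Fgfbp1, at 1.73 and 1.51 FPKM in the mutants and 1.60 and 2.85 FPKM in wild type, with overlap. Nptn, which encodes the adhesion protein neuroplastin that binds FGF receptors, was at 172 and 159 FPKM in the mutants and 177 and 182 FPKM in wild type. Kl encodes klotho, the co-receptor for FGF23, and stood at 1.21 and 0.739 FPKM in the mutants and 3.58 and 2.06 FPKM in wild type, a log2 difference of -0.93 (limma adjusted p = 0.823). It was 1 of the 3 genes at an unadjusted p under 0.05. Fgfbp3 and Kl were also named after their values were seen.

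Heparan sulfate chains hold FGFs in the matrix, and 0 of the genes for their core proteins, synthesis and editing passed the adjusted threshold. Over all genes tested, 19.6% were lower in the mutants without overlap and 12.5% higher. Of 11 core protein genes, 3 were lower and 1 higher without overlap, with a median of -0.15. The glypican gene Gpc6 was at 13.2 and 7.05 FPKM in the mutants and 18.4 and 13.8 FPKM in wild type. The syndecan gene Sdc2 was at 46.0 and 29.8 FPKM in the mutants and 49.9 and 48.5 FPKM in wild type, and the abundant glypican gene Gpc3 at 340 and 245 FPKM in the mutants and 348 and 341 FPKM in wild type. In all 3, mutant 2 was the lowest sample. Of 18 genes for synthesis and editing of the chains, 7 were lower and 3 higher without overlap, with a median of -0.12. Hs3st1, a 3-O-sulfotransferase gene, was at 7.97 and 6.40 FPKM in the mutants and 11.7 and 12.1 FPKM in wild type, a log2 difference of -0.66 with a standard error of 0.16 (limma adjusted p = 0.703). Glce, the glucuronic acid epimerase gene, was at 6.51 and 5.67 FPKM in the mutants and 9.83 and 8.69 FPKM in wild type, a log2 difference of -0.53 (limma adjusted p = 0.861). Hs3st2, another 3-O-sulfotransferase gene, went the other way, at 4.55 and 8.50 FPKM in the mutants and 2.97 and 4.24 FPKM in wild type.

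No gene downstream of the receptors passed the adjusted threshold. Of 18 genes of the relay from receptor to MAP kinase, 4 were lower and 0 higher without overlap, with a median of -0.02. The phospholipase gene Plcg1 had a log2 difference of -0.29 and the exchange factor gene Sos2 of -0.21. Of 13 feedback inhibitors and transcriptional targets, 2 were higher and 0 lower without overlap, with a median of 0.02. The phosphatase gene Dusp5 was at 4.59 and 7.46 FPKM in the mutants and 3.08 and 4.58 FPKM in wild type. The best known readouts of receptor activity overlapped between the groups, with log2 differences of 0.02 for Etv5, 0.29 for Etv4, -0.12 for Dusp6, -0.02 for Spry2 and 0.15 for Spry4. These 5 were named after their values were seen.

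**Figure D5:**
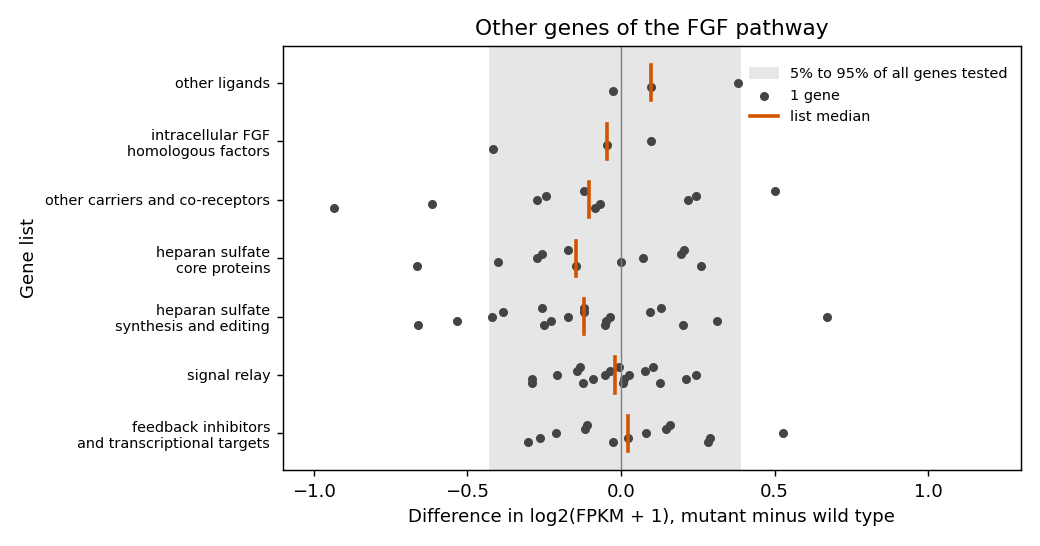
Difference in log2(FPKM + 1), mutant minus wild type, for each tested gene of 7 FGF pathway lists (points) with list medians (orange), over a grey band from the 5% to the 95% point of all genes tested. Medians run from -0.15 for heparan sulfate core proteins to 0.10 for other ligands, and most genes lie within the band.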

How the data were processed

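RNA from 2 mutant and 2 wild type samples was sequenced in bulk. The submitters' processing notes name mm10, CASAVA, Cufflinks 2.2.1 and TopHat2 2.1.2, without roles or settings. The authors deposited FPKM values, which hold no read counts, so depth is unknown. Column totals ran from 620018 to 686830 FPKM. The authors' deposited table of 150 genes, which they label as significant, gives group FPKM, a log2 ratio, a test score and p-values and q-values. Only its gene names and log2 ratio were used. Limma 3.58.1 in R 4.3.3 was run on log2(FPKM + 1) over the 14040 genes whose mean reached 1 FPKM in a group. It used a mean-dependent variance prior and Benjamini-Hochberg adjustment. The fit was tried on simulated data, with checks on effect sizes and on recovery at unadjusted p only, not at the adjusted threshold. Differences are mutant minus wild type, and the pseudocount understates those of scarce genes. Fold values are ratios of mean FPKM. Labels do not say that samples were separate animals, so p-values measure the spread between samples, which may be technical. Alternatives were a pseudocount of 0.1, no filter, a minimum of 5 FPKM, rescaling by median ratios, quantile normalization, each sample left out and a replicate block. From pathway lists with no call, the rule named up to 3 genes of at least 5 FPKM without overlap that differed most; from marker lists it named the 2 most abundant. A few results under this rule are left out. The genes and lists were chosen with earlier results of these data known.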

Additional observations from a re-analysis of the deposited data

How the results depend on the processing

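Fgfbp1 kept its direction in all 10 alternatives, with log2 differences from -2.36 to -2.04 when samples were left out in turn. Since the gene was chosen by its values in these same samples, that range is a description only. None of the other 7 genes, and none of the pathway genes, passed an adjusted p of 0.05 in limma under any alternative, and for the 7 the adjusted p ran from 0.210 to 1.00. Only Fgf13 changed sign, to 0.0020 after rescaling by median ratios and between -0.22 and 0.19 with samples left out. With samples left out the ranges were 0.024 to 0.41 for Fgf1, -0.44 to -0.12 for Fgf2, -0.57 to -0.21 for Fgf7, -0.46 to -0.10 for Fgfr1, -0.81 to -0.44 for Fgfr2 and 0.050 to 0.35 for Fgfr3. Fgf2 and Fgfr3 gave no value at a minimum of 5 FPKM, and neither did the other ligands.

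Over all genes, 5 passed the adjusted threshold without wild type 1 and 0 without each other sample. At an unadjusted p under 0.05 there were 440 to 1807 genes with samples left out, most without mutant 1, and 400 at a minimum of 5 FPKM, where fewer genes were tested. List medians with samples left out were 0.069 to 0.22 for other ligands, -0.13 to 0.036 for intracellular factors, -0.19 to -0.072 for carriers and co-receptors, -0.20 to -0.028 for heparan sulfate core proteins, -0.24 to -0.018 for synthesis and editing, -0.076 to 0.0029 for signal relay and -0.078 to 0.13 for feedback inhibitors and targets. The median of the intracellular factors was also -0.065 with a pseudocount of 0.1, 0.10 at a minimum of 5 FPKM, -0.038 after median ratios and -0.030 after quantile normalization; the cause was not tested.

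Samples share replicate numbers, with no stated origin for the pairing. Over genes, deviations of same-numbered samples from their group means had a correlation of 0.48. With a replicate block, 61 genes passed the adjusted threshold and 1474 an unadjusted p under 0.05. None of the 7 genes or the pathway genes was among the 61, and Fgfr2 had an adjusted p of 0.210 in that limma fit. Depth cannot be read from FPKM, so values near 1 FPKM, as for Fgf2, Fgfr3 and Kl, carry an unknown counting error.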

Other observations

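The genes that flank Fgfbp1 on chromosome 5 did not share its difference. Prom1, the nearest gene with values at higher coordinates, 11.8 kb away, was at 1.93 and 2.27 FPKM in the mutants and 2.096 and 2.01 FPKM in wild type. Cd38, which encodes an enzyme of NAD breakdown, lay 66.5 kb away on the other side and was at 8.83 and 6.36 FPKM in the mutants and 9.13 and 9.72 FPKM in wild type. The next genes, Bst1, Fbxl5, Tapt1 and Ldb2, had log2 differences of 0.05, -0.13, -0.15 and 0.05. All 6 had a limma adjusted p of 0.994 over all genes. These neighbours were chosen by position after the values of Fgfbp1 were known.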
